A study of Bos taurus with 35 samples.

Results

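The genes described here are those that the annotation classes as mitochondrial tRNA (Mt_tRNA) or mitochondrial rRNA (Mt_rRNA) and that appear in the study's supplementary list of differentially expressed (DE) genes. They numbered 7 of the 27607 genes in the count table, 5 of them tRNA genes and 2 of them rRNA genes. The tRNA genes were ENSBTAG00000043574, ENSBTAG00000043575, ENSBTAG00000043544, ENSBTAG00000043572 and ENSBTAG00000043579, and the rRNA genes were ENSBTAG00000043570 and ENSBTAG00000043567. The list holds these genes because their counts differed between a later time point and 0 h, so that their changes against 0 h are given below as a description without a test. Since 257 rows of the copy of the list used here, all from the genes downregulated at 72 h, were cut, further genes of these classes could be among the cut rows and were not analysed here.

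The study sampled core tissue of the *longissimus thoracis* (*LT*), the large muscle along the back, from the left carcass side of 7 British × Continental crossbred heifers at 0, 6, 24, 48 and 72 h *post-mortem*. The study names no engineered allele and no experimental treatment for the animals, which were finished on a diet based on barley grain. The 0 h cores were taken 45 min after death, and the carcass sides hung in a drip cooler at the later times. Each of the 7 animals gave 1 RNA-Seq library at each of the 5 time points, which makes 35 samples paired by animal, and the animals served as replicates. All 5 cores of an animal came from 1 carcass side.

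Mitochondria of cattle, as of other mammals, carry a small circular genome that is copied into long transcripts from both strands. The tRNAs lie between most of the rRNA and protein coding stretches, and their excision by dedicated nucleases releases the rRNAs and mRNAs on either side. The mature rRNAs form the core of the mitochondrial ribosome and the tRNAs deliver its amino acids, so that both are needed to make the respiratory chain subunits on which oxidative muscle relies. The RefSeq list of the bovine assembly ARS-UCD2.0 holds 37 mitochondrial genes, of which 22 encode tRNAs of 60 to 75 bases, 2 encode rRNAs of 955 and 1571 bases and 13 encode proteins. No table used here pairs the Ensembl identifiers of the 7 genes with RefSeq entries, so that the amino acid of each tRNA gene, the size of each rRNA gene, and their positions and strands are not given.

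The libraries were prepared with a stranded mRNA protocol, and their total counts ranged from 20568418 to 104275821 reads with a median of 40133660. All 7 genes were among the 14630 genes that passed the filter on low counts, but the number of reads behind them differed widely. The rRNA gene ENSBTAG00000043570 had 61488 to 674825 reads per library and ENSBTAG00000043567 had 14084 to 122673. The tRNA genes were thinly covered. ENSBTAG00000043572 had 49 to 521 reads per library, ENSBTAG00000043574 had 10 to 182, ENSBTAG00000043575 had 1 to 205, ENSBTAG00000043544 had 1 to 50 and ENSBTAG00000043579 had 1 to 33. A count of 1 read has a 95% exact Poisson interval of 0.0253 to 5.57 reads, which covers counting error only, so that single libraries say little about the last 3. Reads of this protocol that overlap a tRNA gene can come from the processed tRNA or from a longer uncut transcript. The authors discarded reads shorter than 75 bases after trimming, and the annotated tRNAs have 60 to 75 bases. Few reads of a fully processed tRNA would therefore be kept. Reads of a longer transcript that also overlap a neighbouring gene could have been lost in counting as well. The share of each source was not tested. The tRNA values below are read levels at these genes and not levels of mature tRNA. Likewise, the rRNA values are read levels in an mRNA protocol, and the amount of mature rRNA was not measured. Reads shared with nuclear copies of mitochondrial DNA could also have been lost or split in counting.

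The samples were checked against marker genes of the tissue. Only 5 of the 12 muscle markers could be matched to an identifier (CKM, MYLPF, TNNT3, TNNC2 and NEB), and their summed level was 42903 to 51054 CPM (read counts scaled to 1000000 per library with TMM factors) at 0 h and 63153 to 94217 CPM at 72 h. Of these 5 genes, 4 were higher at 72 h, while NEB was lower, with means of 7781 CPM at 0 h and 4917 CPM at 72 h. The 7 adipocyte markers summed to 151 to 418 CPM at 0 h and to 113 to 599 CPM at 6 h. Their sum then ranged from 88.1 to 148 CPM at 24 h and was 39.4 to 138 CPM by 72 h. The 3 macrophage markers matched of 4 summed to 22.3 to 75.8 CPM at 0 h and 8.71 to 26.2 CPM at 72 h, and the 5 T and NK cell markers matched of 7 to 4.80 to 10.1 CPM and 10.2 to 13.8 CPM. The single fibroblast marker matched of 5 (PDGFRA) had 31.9 to 66.2 CPM at 0 h and 13.7 to 33.7 CPM at 72 h. The 2 erythroid markers matched of 3 (HBA and HBB) stayed between 0.0520 and 3.59 CPM at 0 h and reached 72.1 CPM in 1 library at 48 h. No matched marker gene had 0 reads in all 7 libraries of a time point, and none of the 5 endothelial markers could be matched. The part of these shifts in the results below was not tested. In bulk tissue, fewer cells of a type and less RNA per cell cannot be told apart.

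Of the 5 tRNA genes in the study's list, 4 had lower levels from the first *post-mortem* interval onwards. They were called downregulated at 6 h and at 24 h against 0 h, where a call means a false discovery rate below 0.05 and a fold change above 1.5 in the fit across all genes with animal as a block. In that fit 0.185% of all genes tested were called downregulated at 6 h and 0.95% at 24 h. At 48 h, 3 of the 4 were called (background 6.3%), and 3 were again called by 72 h (background 15.4%). These calls repeat the contrasts that chose the genes. The other mitochondrial tRNA genes, of 22 in the RefSeq list, were not analysed here, so that 4 of 5 is not a share of all of them. Of the 3 genes called at 72 h, ENSBTAG00000043574 and ENSBTAG00000043544 are not in the uncut rows of the 72 h sheet.

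ENSBTAG00000043574 had a lowest, median and highest level of 0.656, 1.95 and 3.15 CPM at 0 h and of 0.338, 0.776 and 1.05 CPM at 6 h. Its medians at 24, 48 and 72 h were 0.594, 0.716 and 0.873 CPM. Each of the 7 animals was below its own 0 h level at 6, 24 and 48 h, and 5 of 7 were below it at 72 h, although the ranges of the groups overlapped at each time. Of all genes tested, 4.48% were lower in all 7 animals at 6 h, 6.46% at 24 h and 14% by 48 h. The log2 fold changes at 6, 24, 48 and 72 h against 0 h were -1.64 ± 0.25 (SE of the fit, as in all later values of this kind), -1.59 ± 0.24, -1.22 ± 0.24 and -0.74 ± 0.23. The call at 72 h was lost when animal 107 was left out (log2 fold change -0.53) and in the fit without the animal block (-0.75).

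ENSBTAG00000043575 had the largest decrease of the 7 genes at each of the 4 later times. Its lowest, median and highest levels were 0.314, 1.05 and 3.55 CPM at 0 h, 0.0242, 0.368 and 0.704 CPM at 6 h, and 0.0440, 0.181 and 0.476 CPM at 24 h. The levels were lower than at 0 h in 7 of 7 animals at 6, 24 and 48 h and in 6 of 7 at 72 h, when the median was 0.647 CPM. The log2 fold changes were -1.86 ± 0.30, -2.44 ± 0.31, -2.02 ± 0.31 and -1.26 ± 0.27 at 6, 24, 48 and 72 h. Without the animal block the call at 6 h was lost (-1.95).

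ENSBTAG00000043544 was measured with a median of 9 reads per library. It had 0.166, 0.354 and 0.866 CPM at 0 h (lowest, median and highest) and 0.0550, 0.106 and 0.272 CPM at 6 h. All 7 animals were below their 0 h level at 6, 24 and 48 h, against 4 of 7 at 72 h. The log2 fold changes were -1.60 ± 0.28, -1.68 ± 0.27, -0.98 ± 0.26 and -0.78 ± 0.24. The calls at 6, 48 and 72 h were lost in the fit without the block (-1.68, -1.04 and -0.87).

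ENSBTAG00000043572 was the best covered tRNA gene, with 67.2% of all tRNA reads over the 35 libraries, and it had the smallest decrease of the 4. Its levels were 3.04, 5.601 and 9.97 CPM at 0 h and 1.596, 3.33 and 7.30 CPM at 6 h, and it was lower in 6, 7, 6 and 5 of 7 animals at 6, 24, 48 and 72 h. The log2 fold changes were -0.73 ± 0.17, -0.79 ± 0.17, -0.49 ± 0.17 and -0.38 ± 0.17, of which the first pair was called. The call at 6 h was lost without animal 101 (-0.65), 103 (-0.68) or 107 (-0.68), while without animal 104 the 48 h value was called as well (-0.61). The fit without the block called neither 6 h (-0.68) nor 24 h (-0.79).

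The fifth tRNA gene, ENSBTAG00000043579, took another course. It had 0.0460, 0.157 and 0.312 CPM at 0 h, 0.0550, 0.140 and 0.540 CPM at 6 h and 0.0628, 0.404 and 0.759 CPM at 72 h, with wide overlap of the groups. At 72 h it was higher than at 0 h in 6 of 7 animals and was called upregulated (log2 fold change 1.05 ± 0.40). The values at 6, 24 and 48 h were 0.66 ± 0.41, -0.06 ± 0.43 and 0.70 ± 0.41. With a median of 10 reads per library and the highest dispersion of the 7 genes (a biological coefficient of variation of 0.401, against a median of 0.102 over all genes tested), its 72 h call was lost without animal 104 (0.95), 201 (0.85) or 202 (0.88) and in the fit without the block (1.09).

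**Figure D1:**
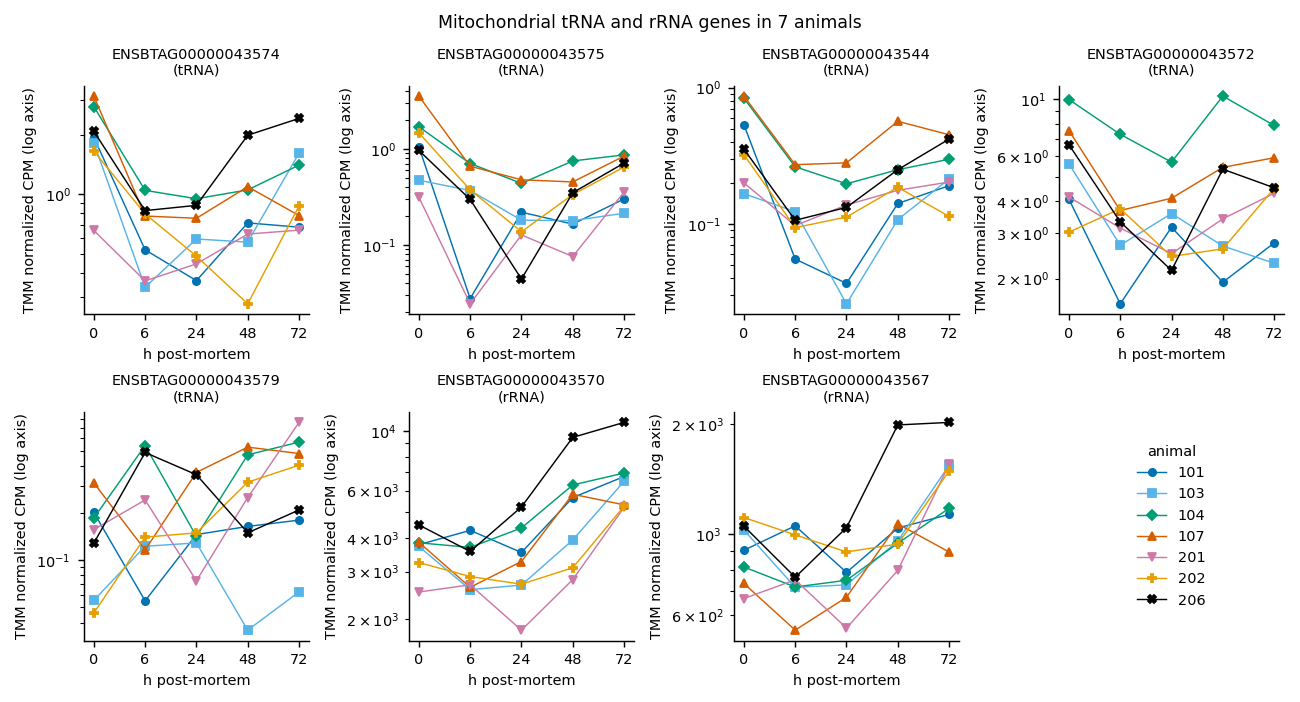
TMM normalised CPM (log axis) of the 5 tRNA genes and the 2 rRNA genes at 0, 6, 24, 48 and 72 h *post-mortem*, with the time points evenly spaced and 1 coloured line per animal. The lines of ENSBTAG00000043574, ENSBTAG00000043575 and ENSBTAG00000043544 drop between 0 and 6 h in 7 of 7 animals, and both rRNA genes end above their 0 h level at 72 h in 7 of 7.

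Summed over the 5 genes, tRNA reads made up 10.2 ± 4.29 of 1000000 counts at 0 h (mean ± SD, n = 7 animals). At 6, 24, 48 and 72 h the sum was 5.23 ± 2.46, 4.77 ± 1.61, 6.09 ± 3.36 and 6.46 ± 2.33, and it lay below the animal's own 0 h value in 7 of 7 animals at each of these times. It rested on 81 to 891 reads per library and was scaled by library totals without TMM factors. In CPM with TMM factors, each of the 5 tRNA genes of animal 201 was higher at 72 h than at 0 h. For ENSBTAG00000043572 these levels were 4.30 and 4.16 CPM. The 7 of 7 animals at 72 h therefore depend on the scaling. The sum mainly reflects ENSBTAG00000043572, which gave 46.5% to 81.2% of the tRNA reads of a library.

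The 2 rRNA genes were slightly below their 0 h level at 6 and 24 h and above it from 48 h. Neither was called at 6, 24 or 48 h, and no other member was called upregulated at these times, when 0.349%, 0.725% and 2.96% of all genes tested were. Both were called upregulated at 72 h together with ENSBTAG00000043579, which made 3 of the 7 genes (background 9.8% of all genes tested). ENSBTAG00000043570 had 2522, 3778 and 4472 CPM at 0 h (lowest, median and highest) and 5194, 6490 and 10735 CPM at 72 h. Each 72 h sample was therefore above each 0 h sample, a separation upwards that 7.9% of all genes tested showed between these time points. None of the other 6 genes was separated at 72 h upwards or downwards, the latter being found for 10.1% of all genes tested. The log2 fold changes of ENSBTAG00000043570 at 6, 24, 48 and 72 h were -0.19 ± 0.12, -0.17 ± 0.12, 0.46 ± 0.12 and 0.85 ± 0.12. The last call held without each animal in turn, with values of 0.79 to 0.93.

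ENSBTAG00000043567 had 667, 903 and 1109 CPM at 0 h and 893, 1485 and 2016 CPM at 72 h, so that the groups overlapped, but 7 of 7 animals were higher at 72 h than at 0 h, as for 21.3% of all genes tested. Its log2 fold changes were -0.18 ± 0.13, -0.22 ± 0.13, 0.27 ± 0.13 and 0.63 ± 0.13 at 6, 24, 48 and 72 h. The last value lay just inside the fold change threshold, which is 0.585 on the log2 scale, and fell outside it without animal 201 (0.51), without animal 206 (0.58) and with library totals in place of TMM factors (0.45). That last scaling moved the median log2 fold change of all genes at 72 h to -0.16, relative to which the value was 0.61. The nearest values outside the threshold were those of ENSBTAG00000043572 at 48 h (-0.49), of ENSBTAG00000043570 at 48 h (0.46) and of ENSBTAG00000043572 at 72 h (-0.38).

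**Figure D2:**
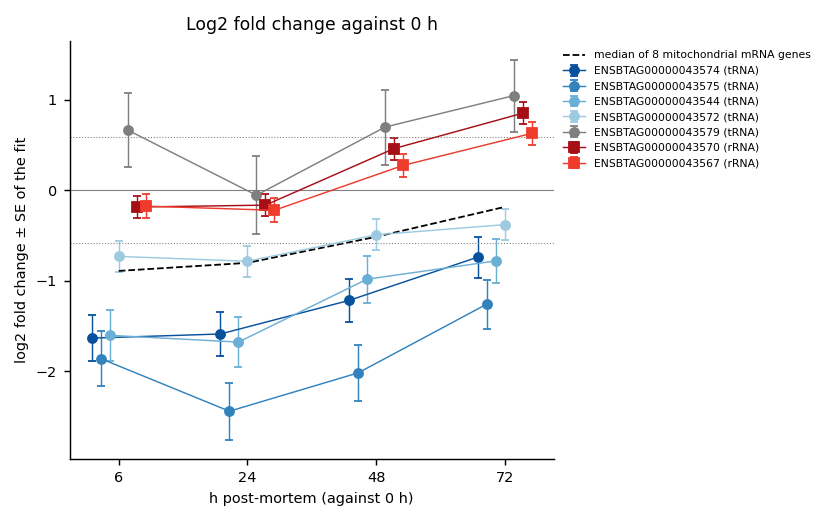
Log2 fold change against 0 h at 6, 24, 48 and 72 h (evenly spaced) of the 5 tRNA and 2 rRNA genes, with error bars of 1 SE of the fit over 7 animals per time point, dotted lines at a fold change of 1.5 and a dashed line for the median of the 8 named mitochondrial mRNA genes. ENSBTAG00000043575 is lowest throughout, at -2.44 at 24 h, and the rRNA genes lie slightly below 0 at 6 and 24 h and reach 0.85 and 0.63 at 72 h.

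The rRNA genes together took 0.467% ± 0.0622 of all counts at 0 h (mean ± SD, n = 7). The shares at 6, 24, 48 and 72 h were 0.415% ± 0.0936, 0.433% ± 0.134, 0.624% ± 0.259 and 0.744% ± 0.233, and they were above the animal's own 0 h value in 2, 2, 6 and 7 of 7 animals. The SD at 48 and 72 h was several times that at 0 h, and animal 206 had the highest share at both times.

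Between neighbouring time points, the fitted differences of the 7 genes after 24 h were all above 0, but only 1 of these 14 steps was called, that of ENSBTAG00000043570 from 24 to 48 h. Of all genes tested, 0.376% were called higher in that step and 0.786% from 48 to 72 h. From 6 to 24 h the mean log2 difference was -0.17 for the 4 tRNA genes that were lower at 6 h and -0.01 for the rRNA genes. From 24 to 48 h it was 0.45 and 0.56, and from 48 to 72 h it was 0.39 and 0.37. The step from 24 to 48 h was upwards in 7 of 7 animals for ENSBTAG00000043570 (0.63 ± 0.12), ENSBTAG00000043567 (0.50 ± 0.13) and ENSBTAG00000043544 (0.70 ± 0.30). Over all genes tested, 10.2% were higher in all 7 animals in that step. ENSBTAG00000043575 was higher in 7 of 7 animals from 48 to 72 h (0.76 ± 0.33), against 9.49% of all genes tested. For these 4 tRNA genes the steps brought the levels back towards 0 h, and for the rRNA genes beyond it.

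The levels were set beside those of the 8 mitochondrial mRNA genes that the list names, which encode complex I subunits (ND1 to ND6 and ND4L) and cytochrome b of complex III (CYTB). These mRNAs also come from that list, and were chosen by the same contrasts. At 6, 24, 48 and 72 h, 8, 7, 4 and 1 of the 8 were called downregulated, and their median log2 fold changes were -0.89, -0.80, -0.52 and -0.18, against 0.00, 0.00, 0.00 and 0.01 over all genes tested. ND6, which is transcribed from the opposite strand to the other mRNAs, had the largest decreases of the 8, at -2.06 ± 0.23, -2.25 ± 0.23, -2.06 ± 0.23 and -1.31 ± 0.23. Those of the tRNA gene ENSBTAG00000043575, given above, were -1.86, -2.44, -2.02 and -1.26 at the same times. Whether this tRNA gene lies on the strand of ND6 is not known here, and a link between them was not tested.

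Per read of the 8 mRNA genes, the rRNA genes had 0.130 ± 0.0160 reads at 0 h (mean ± SD, n = 7). At the 4 later times they had 0.208 ± 0.0474, 0.198 ± 0.0381, 0.243 ± 0.0558 and 0.261 ± 0.0470 reads. The ratio was above its 0 h value in 7 of 7 animals at each later time, but the genes above and below the line were chosen by their changes against 0 h, in opposite directions, so that this direction is set in part by the choice and is no support. The other mitochondrial mRNA genes were not analysed here. Between 0 and 6 h the share of the 8 mRNA genes in all counts went from 3.62% ± 0.452 to 2.04% ± 0.418, and that of the rRNA genes from 0.467% to 0.415%. The tRNA genes had 285 ± 133 reads per 1000000 reads of the 8 mRNA genes at 0 h and 263 ± 124, 227 ± 85.4, 245 ± 130 and 235 ± 107 at the later times, and were below 0 h in 4, 6, 5 and 6 of 7 animals. Within animals the differences from 0 h were -22.3 ± 61.1, -58.3 ± 64.3, -40.9 ± 76.7 and -50.3 ± 53.7 (mean ± SD, n = 7). Each mean difference was smaller than its SD, which measures the spread between animals and not the error of the mean. Whether the means differ from 0 was not tested.

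**Figure D3:**
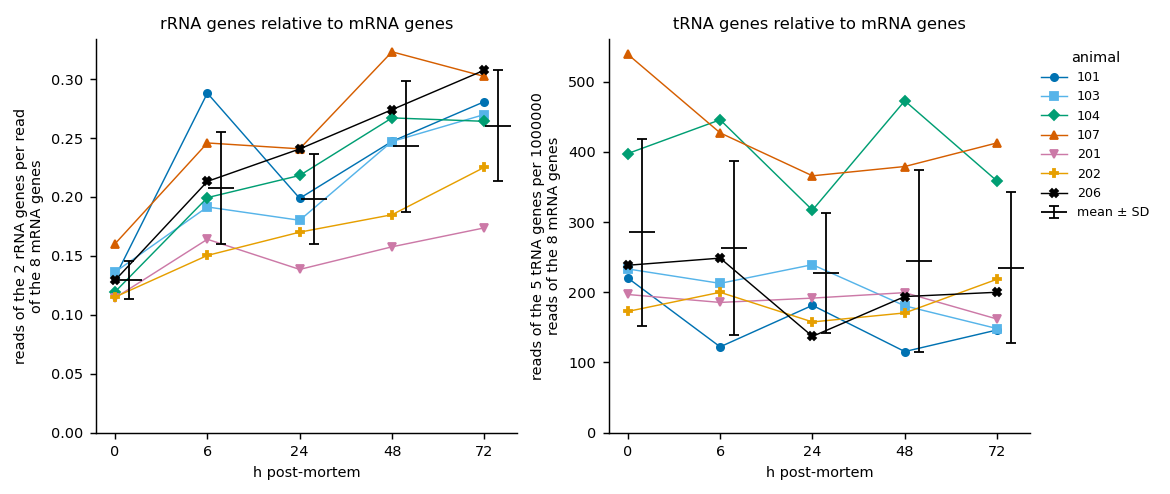
Reads of the 2 rRNA genes per read of the 8 named mRNA genes (left) and reads of the 5 tRNA genes per 1000000 reads of the same mRNA genes (right) at 5 evenly spaced time points, 1 line per animal, black bars for the mean ± SD of 7 animals, linear axes from 0. The left values go from a mean of 0.130 at 0 h to 0.261 at 72 h (genes of both kinds were chosen by their changes against 0 h), whereas the right means lie between 227 and 285 with animals 104 and 107 on top at each time.

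The 2 rRNA genes did not keep one ratio to each other. The reads of ENSBTAG00000043570 per read of ENSBTAG00000043567, which are counts and not levels per length, were 4.11 ± 0.760, 4.11 ± 0.808, 4.31 ± 1.02, 4.75 ± 1.201 and 4.90 ± 1.17 from 0 to 72 h in order of time (mean ± SD, n = 7), and the ratio at 48 and 72 h was above that at 0 h in 6 of 7 animals. The spread between animals was wider than the change with time. Over its 5 samples, animal 202 had a mean ratio of 3.13 ± 0.275 (SD), animal 201 3.51 ± 0.195 and animal 103 3.85 ± 0.291, while animals 206 (4.81 ± 0.397), 101 (4.83 ± 0.840), 107 (5.27 ± 0.465) and 104 (5.66 ± 0.750) were higher. The ranges of neighbours in this order overlapped except for animals 103 (up to 4.21) and 206 (from 4.26), and that of animal 202 (2.89 to 3.53) lay wholly below those of animals 206, 101, 107 and 104. After removal of the time point means, animals held 91.1% of the variance of the log2 ratio. This measure was chosen after the pattern had been seen and was not compared with the ratios of other gene pairs, so that it is given without a test.

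**Figure D4:**
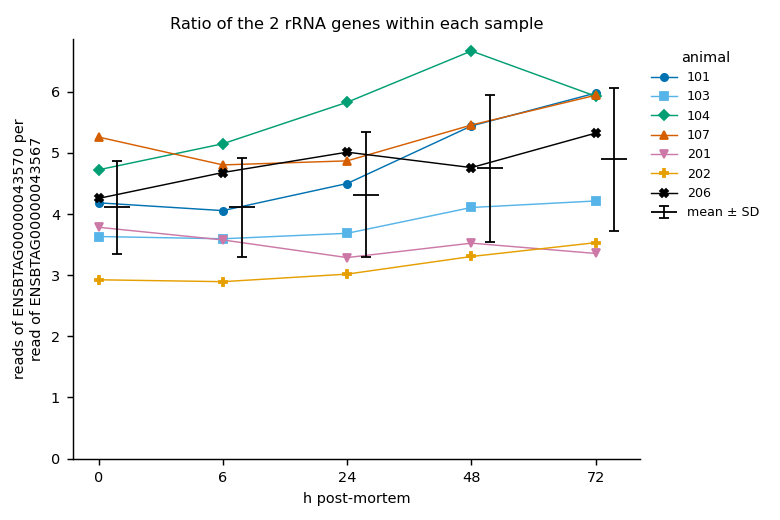
Reads of ENSBTAG00000043570 per read of ENSBTAG00000043567 in each sample at 5 evenly spaced time points, 1 line per animal, black bars for the mean ± SD of 7 animals, linear axis from 0. Animals 202 and 201 stay between 2.89 and 3.78 throughout, and animal 104 lies between 4.72 and 6.67.

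Each of the 7 genes also differed in level between animals. In the edgeR quasi-likelihood test of the animal term, with Benjamini-Hochberg adjustment over the 14630 genes, the adjusted p was 2.98e-07 for ENSBTAG00000043572, 1.91e-06 for ENSBTAG00000043570 and 2.18e-06 for ENSBTAG00000043575. It was 4.52e-05 for ENSBTAG00000043544, 0.000449 for ENSBTAG00000043574, 0.00109 for ENSBTAG00000043567 and 0.00443 for ENSBTAG00000043579. The same test called 82.5% of all genes tested, so that a difference between animals is not particular to these 7. After removal of the time point means, animals held between 45.7% of the variance of log2 CPM (ENSBTAG00000043579) and 74.7% (ENSBTAG00000043570), against a median of 58.9% over all genes tested. The 5 cores of an animal came from 1 carcass, so that these values measure differences between carcasses.

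Different animals stood high for most tRNA genes and for the rRNA genes. Animals 104 and 107 were above the mean for each of the 5 tRNA genes, by 0.54 to 1.04 and by 0.28 to 1.11 on the log2 scale. ENSBTAG00000043572 was highest in animal 104 and ENSBTAG00000043544 in animal 107 at 5 of 5 time points. For the rRNA genes animal 206 was highest on average, by 0.58 for ENSBTAG00000043570 and 0.43 for ENSBTAG00000043567, while animal 107 was below the mean for both (-0.03 and -0.31). Animal 206 was also highest for the tRNA gene ENSBTAG00000043574, by 0.70, and animal 104 was second for ENSBTAG00000043570, by 0.25. Animal 201 was lowest for ENSBTAG00000043574 (-0.71), ENSBTAG00000043575 (-1.21) and ENSBTAG00000043570 (-0.53).

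**Figure D5:**
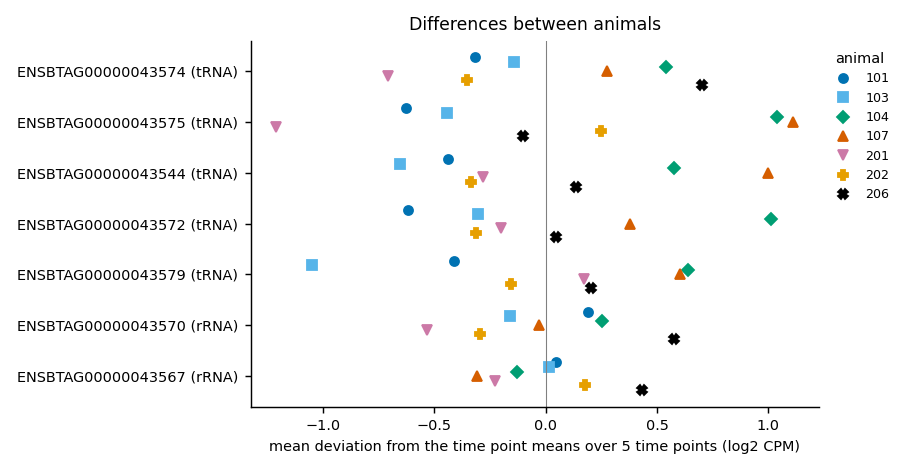
Mean deviation of each animal from the time point means of log2 CPM over its 5 samples, 1 row per gene and 1 coloured point per animal. Animals 104 and 107 lie to the right in the 5 tRNA rows, up to 1.11, and animal 206 is the rightmost point in both rRNA rows, at 0.58 and 0.43.

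Across the 35 samples, the 6 correlations among the 4 tRNA genes that were lower at 6 h ranged from 0.60 to 0.76, and their 8 correlations with the rRNA genes from 0.016 to 0.51. ENSBTAG00000043579 had 0.023 to 0.45 with the other tRNA genes. These correlations (Pearson's r of log2 CPM) are a description, since samples share animals, time points and library depth. ENSBTAG00000043544 and ENSBTAG00000043575 had r = 0.76, ENSBTAG00000043572 and ENSBTAG00000043575 r = 0.73, and ENSBTAG00000043544 and ENSBTAG00000043574 r = 0.73. The rRNA genes had r = 0.82 with each other, or 0.65 after removal of the time point means. ENSBTAG00000043574 had r = 0.73 with the rRNA gene ENSBTAG00000043570 after that removal (0.51 before it), and its closest gene was ND2 (r = 0.84 over the 35 samples and 0.72 within time points). ENSBTAG00000043570 and ND2 had r = 0.84 within time points.

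Among 3112 genes that had a symbol or were mitochondrial and passed the filter, the closest 3 to each gene were listed. Symbols came only from the study's list of DE genes, so that the search covered mainly genes that changed with time and not all 14630 tested. For ENSBTAG00000043544 they were 2 other tRNA genes and MFNG (r = 0.73), a glycosyltransferase that modifies Notch receptors, which was also second for ENSBTAG00000043574 (0.77), ahead of ND4L (0.73). For ENSBTAG00000043575 all 3 were tRNA genes. ENSBTAG00000043572 was followed, after ENSBTAG00000043575, by PROSER2 (0.63) and OXT (0.63), the oxytocin precursor. For the rRNA gene ENSBTAG00000043567 they were MRPL57 (0.83), a protein of the mitochondrial ribosome, NDUFB8 (0.83), a complex I subunit encoded in the nucleus, and GATD1 (0.82). For ENSBTAG00000043570 they were SERF2 (0.86), BAD (0.84), a promoter of apoptosis, and POLR2F (0.84), a subunit of the nuclear RNA polymerases. ENSBTAG00000043579 had the weakest partners, MYL12B (0.66), a myosin regulatory light chain, AVIL (0.64), an actin-binding protein, and SNORD35A (0.58), a small nucleolar RNA.

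The machinery that makes, matures and degrades these RNAs is encoded in the nucleus. Of 103 symbols in 5 lists of such genes, 17 could be matched to an identifier, and only because they are in the study's list of DE genes, so that their calls are again a description. The numbers called downregulated at 6, 24, 48 and 72 h were 0, 1, 7 and 13, and 4 were upregulated by 72 h. Of all genes tested, 0.185%, 0.95%, 6.3% and 15.4% were called downregulated and 9.8% upregulated by 72 h. With library totals in place of TMM factors 1 was upregulated at 72 h, and without animal 206 or with the filter at 1 CPM 4 were downregulated at 48 h. Their median log2 fold changes were -0.12, -0.21, -0.49 and -0.84 at 6, 24, 48 and 72 h, against 0.00 to 0.01 over all genes tested. All 17 were matched only through the list of DE genes, so that a call at some time was fixed in advance. Both comparisons with all genes were therefore set in part by this choice and are no support.

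In transcription and replication the 1 gene matched of 13 symbols was TFAM, which packages mitochondrial DNA and activates its transcription. TFAM was at -0.74 ± 0.17 at 48 h and -1.50 ± 0.18 at 72 h. Of the aminoacyl-tRNA synthetases and related enzymes, which charge the tRNAs, 5 of 24 symbols were matched. All 5 were downregulated at 72 h, but genes that are not in the list of DE genes could not be matched. They included the prolyl-tRNA synthetase PARS2 at -1.95 ± 0.22, the glutamyl-tRNA synthetase EARS2 at -1.07 ± 0.18 and QRSL1, a subunit of the enzyme that completes glutaminyl-tRNA, at -0.84 ± 0.10. PARS2 was the 1 gene called at 24 h (-0.63 ± 0.18), and this call was lost without animal 101, 103, 107, 201 or 206. For tRNA processing and modification 2 of 26 symbols were matched. They were MTO1, which modifies the wobble base of some mitochondrial tRNAs (-1.004 ± 0.108 at 72 h), and the pseudouridine synthase PUSL1 (0.76 ± 0.11).

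In rRNA maturation and ribosome assembly 6 of 26 symbols were matched, 4 downregulated and 2 upregulated at 72 h. The RNA-binding protein GRSF1 was at -0.99 ± 0.10, the rRNA methyltransferase MRM3 at -0.89 ± 0.12 and the pseudouridine synthase TRUB2 at -0.87 ± 0.13, while the assembly factors MALSU1 and MTG1 were at 0.64 ± 0.08 and 0.68 ± 0.06. In RNA stability and decay 3 of 14 symbols were matched. PDE12, which shortens poly(A) tails in mitochondria, was at -1.15 ± 0.11 and LRPPRC, which stabilises mitochondrial mRNAs, at -0.73 ± 0.07, whereas SLIRP, the partner of LRPPRC, was at 0.90 ± 0.07.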

How the data were processed

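RNA-Seq of 35 *LT* samples (7 heifers, 5 time points) was used. The authors trimmed the reads (Trimmomatic 0.39) and discarded those shorter than 75 bases. They mapped the rest with STAR 2.7.0f to ARS-UCD1.2 and counted them per gene with featureCounts 1.6.4. Their methods call this counting strand specific, but the strand option they list is that of unstranded counting. The deposited values are raw counts, and 0 columns were left unused. The authors named the table as counts of the reverse strand, while their methods speak of the sense strand; which strand it holds for each mitochondrial gene was not settled here.

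All genes were fitted in edgeR 4.0.16 (R 4.3.3): filterByExpr with time point as group, TMM factors, a negative binomial model of animal and time point, and the quasi-likelihood test of earlier edgeR versions, with Benjamini-Hochberg adjustment over 14630 genes. CPM values used TMM factors and log2 CPM a prior count of 2. Animal paired the samples: deviations from time point means had a median r of 0.58 over 70 same-animal pairs and -0.12 over 525 others. DESeq2 1.42.0 was an alternative.

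The members and gene lists were chosen with earlier results of these data known. Classes and symbols came from the study's list of DE genes, which covers 3640 identifiers, 3106 of them with a symbol. All 7 members were named. Of the nuclear lists, the 3 genes with the largest change at 72 h in each direction and those called at 6 or 24 h were named.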

Additional observations from a re-analysis of the deposited data

Results flagged for a closer look

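Within each time point, 65 groups of 7 animals were screened for a sample far from the others by Dixon's criterion, and 9 met it. Chance meets the criterion in about 1 of 20 groups of independent, normally distributed values. The values here were not log transformed, and a gene and a sum that holds it share reads. The 9 can therefore not be set against that rate. Animal 206 stood apart in rRNA and mRNA. Its rRNA share of counts at 72 h was 1.247%, with the nearest animal at 0.7554%, its ENSBTAG00000043570 level at 72 h was 10740 CPM (nearest 6966), its ENSBTAG00000043567 level at 48 h was 1985 CPM (nearest 1065), and its share of the 8 mitochondrial mRNA genes at 48 h was 4.063% (nearest 2.677%).

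Animals 104 and 107 stood apart in tRNA. In animal 104 the summed tRNA reads at 6 h were 10.2 of 1000000 counts (nearest 5.647), and ENSBTAG00000043572 was at 7.3 CPM at 6 h (nearest 3.744) and 10.28 CPM at 48 h (nearest 5.429). In animal 107 ENSBTAG00000043575 was at 3.55 CPM at 0 h (nearest 1.703) and ENSBTAG00000043544 at 0.5655 CPM at 48 h (nearest 0.2495).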

How the results depend on the processing

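Requiring at least 1 CPM in at least 7 samples left 4 of the 7 genes in the test, since ENSBTAG00000043544, ENSBTAG00000043575 and ENSBTAG00000043579 were too low, and the numbers called downregulated at 6, 24, 48 and 72 h were then 2, 2, 1 and 1. Without the animal block, that is without the pairing, 1 gene was called downregulated at 6 h and 1 at 72 h. Leaving out each animal in turn gave 1 to 3 genes called upregulated at 72 h (1 without animal 201), 3 to 4 downregulated at 6 h, 4 at 24 h, 3 to 4 at 48 h and 2 to 3 at 72 h. The value of ENSBTAG00000043579 at 24 h, near 0, changed sign in DESeq2 (0.16), without the block (0.10) and without an animal in turn (-0.31 to 0.13, above 0 without 101, 104 or 201, at 0.12, 0.09 and 0.13). Of the nuclear genes, 0 were called downregulated at 24 h under the 1 CPM filter, without the block and with counts thinned to the smallest library, and 0 to 1 with an animal left out. At 48 h 4 were downregulated under the 1 CPM filter and 4 to 8 with an animal left out (4 without 206), 0 to 1 were upregulated with an animal left out (1 without 104 or 202), and at 72 h 1 was upregulated with library totals only. In the thinned counts ENSBTAG00000043544 and ENSBTAG00000043579 did not pass the filter. The causes were not tested, except that a filter removes genes from the test by construction. The quasi-likelihood method of edgeR 4, chosen after seeing the data, called 4, 4, 3 and 3 genes downregulated and 3 upregulated at 72 h.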
